A study of Mus musculus with 6 samples.

Results

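The resistin family of the mouse has 4 genes, Retnla, Retnlb, Retnlg and Retn, and each has a row among the 23284 gene symbols of an FPKM table of lung RNA. The 4 genes were chosen by their symbols after their FPKM values in the 2 genotypes were known, so their own differences are described here without a test. Lung tissue came from C57BL/6 mice at 6 weeks of age. There were 3 Fra-2tg mice, which carry a transgene for Fra-2 (the protein of Fosl2, a subunit of the transcription factor AP-1), and 3 wild-type (WT) littermates without it. Each library is 1 mouse and was made from poly(A) RNA with a stranded kit. The labels and design text name neither the promoter of the transgene nor the cells that express it.

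Resistin family proteins are small, cysteine-rich and secreted. In the mouse, Retn (resistin) is a hormone of fat cells. Retnla encodes RELM-alpha, also known as FIZZ1 or hypoxia-induced mitogenic factor, which macrophages make in response to interleukin-4 and interleukin-13 through STAT6 and which airway and alveolar epithelium make in inflamed mouse lung. Retnlb (RELM-beta) is best known from goblet cells of the gut, and Retnlg (RELM-gamma) from bone marrow and neutrophils. Humans have RETN and RETNLB but no counterpart of Retnla or Retnlg.

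FPKM scales fragment counts by transcript length and library size, so levels of different genes can be set side by side. The FPKM of a library summed to 593094 to 646668 in Fra-2tg and 542233 to 664456 in WT, and with FPKM alone the depth behind a value is unknown. Lung genes were abundant in all 6 libraries, with the surfactant gene Sftpb at 2056 to 3642 FPKM and the alveolar type 1 gene Ager at 1319 to 1664 FPKM. Fosl2 had 12.3, 17.4 and 15.8 FPKM in Fra-2tg and 11.1, 13.9 and 11.2 FPKM in WT, a log2 fold change of 0.30 ± 0.14 (SE; limma adjusted p = 0.158). The groups overlapped, and because the row may or may not hold the transgene's transcripts it is no check of the labels. P-values set each difference between the genotypes against the spread between mice of a group, with variances moderated over all genes tested. In bulk lung tissue, fewer cells of a type and less RNA per cell cannot be told apart.

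Retnla, Retnlb and Retnlg lie side by side on the plus strand of chromosome 16 (GRCm38, GENCODE M21). Retnlb spans 48816856 to 48818892, Retnla 48842551 to 48844461 and Retnlg 48872621 to 48874496, together 57.6 kb, with gaps of 23.7 and 28.2 kb between them. Retn lies alone on chromosome 8, from 3655770 to 3660110 on the plus strand. No other annotated gene overlaps any of the 4. Coding sequences were 84.0% identical between Retnla and Retnlg, 81.3% between Retnlb and Retnlg and 74.6% between Retnla and Retnlb, against 61.2% to 64.7% for Retn with each of the others. No stretch of 50 bases was shared between the transcripts of any pair, or with any transcript of another gene in the annotation.

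The 4 coding sequences hold 13 (Retnla), 12 (Retnlb), 13 (Retnlg) and 11 (Retn) cysteine codons. The last 10 have the same spacing in all 4 genes, with 11, 8, 1, 3, 10, 1, 1, 9 and 0 codons between neighbours, which is the cysteine signature the family is known for. Ahead of it, Retn has 1 further cysteine codon, Retnlb 2, and Retnla and Retnlg 3 each in the annotated reading frames. Those of Retnla are codons 19, 33 and 38 of a frame of 138. Which of these further cysteines remain in the secreted proteins was not examined.

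The stretches ahead of Retnla and Retnlg are shown because they are close copies, although the neighbouring genes stood differently between the genotypes. They come from the RefSeq promoter table (GRCm38.p6), which held 3 of the 4 genes, and each ends before the first annotated start. The Retnla stretch is chr16:48842359-48842550 and the Retnlg stretch chr16:48872358-48872607, both on the plus strand. Capitals mark the match to the letters of a STAT6 element, TTC and GAA with any 4 bases between them.
Retnla: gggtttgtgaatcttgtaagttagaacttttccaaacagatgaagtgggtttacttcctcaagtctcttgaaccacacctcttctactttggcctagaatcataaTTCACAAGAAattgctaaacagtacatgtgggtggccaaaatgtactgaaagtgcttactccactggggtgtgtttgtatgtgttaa
Retnlg: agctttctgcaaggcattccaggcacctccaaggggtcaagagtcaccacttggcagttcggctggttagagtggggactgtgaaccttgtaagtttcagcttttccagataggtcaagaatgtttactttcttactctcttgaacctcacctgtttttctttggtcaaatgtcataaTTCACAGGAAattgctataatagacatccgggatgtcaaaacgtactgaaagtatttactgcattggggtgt

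Over 175 aligned bases the 2 stretches were 78.9% identical, and each held 1 STAT6-type match. It began 87 bases before the GENCODE start of Retnla and 85 before that of Retnlg (145 and 72 before the RefSeq starts). Such a match on either strand was present in 7.0% of all 32851 windows in the table. The looser C/EBP letters TTNNGNAA were found 3 times in the Retnla window, once in that of Retnlg and not in that of Retn, beside a share of 40.7% of all windows with at least 1. In the Retnla window 1 base lies between the STAT6-type match and the C/EBP match that follows it, and the 2 motifs do not overlap in either window. Neither the AP-1 letters TGANTCA (7.8% of all windows) nor the hypoxia element ACGTG (19.6%) occurred in the windows of Retnla, Retnlg or Retn, and the STAT6 letters did not occur in that of Retn. These are matches of letters only, and nothing was measured on binding.

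The family split 3 ways between the genotypes. Retnla and Retnlb were higher in Fra-2tg lungs in every library, Retn was lower in every library, and Retnlg overlapped between the groups. For scale, groups did not overlap for 23.3% of the 14855 genes averaging 0.5 FPKM or more with Fra-2tg above, and for 22.4% with Fra-2tg below. These shares stand beside the 2 members above and the 1 below, and nothing is read from them because the members were chosen with this contrast in view.

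**Figure D1:**
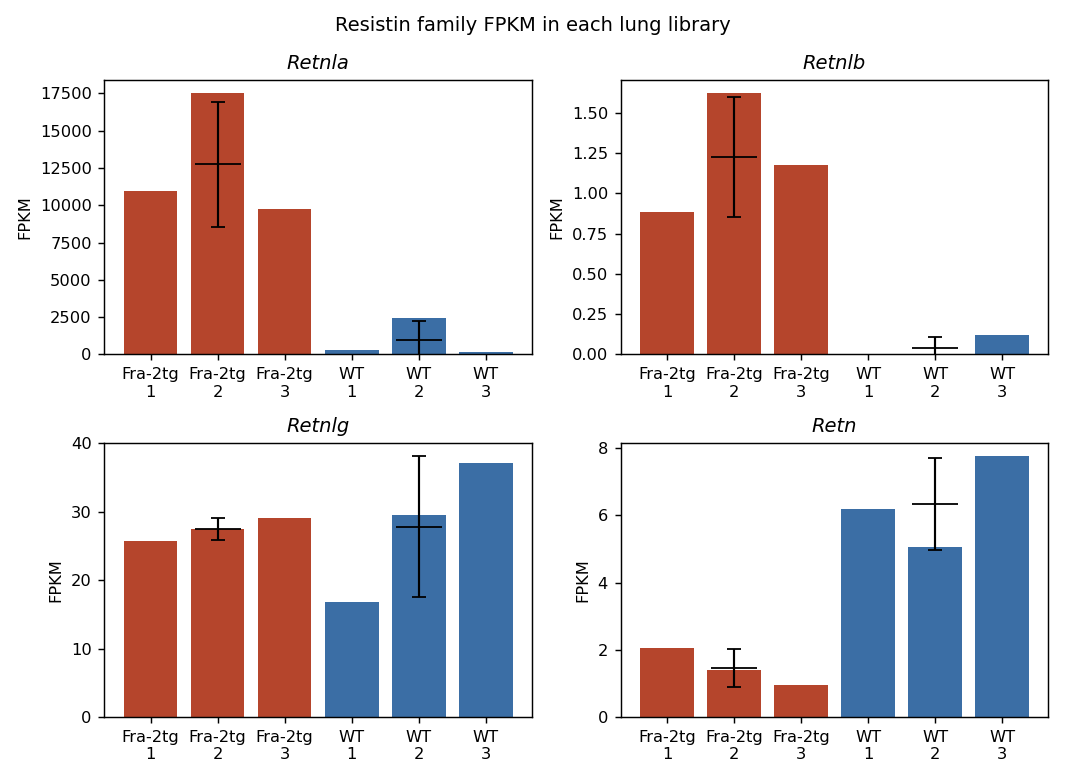
FPKM of each resistin family gene (vertical axes, linear from 0) in the 3 Fra-2tg libraries (red) and the 3 WT libraries (blue); each bar is 1 mouse, and black marks give the group mean and SD, with the SD below 0 left out. Retnla and Retnlb stand higher in all Fra-2tg libraries, Retn in all WT libraries, and Retnlg overlaps.

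Retnla, the RELM-alpha gene, had 10948, 17502 and 9753 FPKM in Fra-2tg replicates 1 to 3 and 324, 2437 and 182 FPKM in WT replicates 1 to 3. The groups lay far apart, and the lowest Fra-2tg value was 4.0 times the highest WT value. Means were 12734 ± 4172 FPKM in Fra-2tg and 981 ± 1263 FPKM in WT (SD, n = 3 each), a ratio of 13.0 and a log2 fold change of 4.55 ± 0.90 (SE) on log2(FPKM + 1). WT replicate 2 stood apart from its group. From lowest to highest, values spanned 1.79-fold in Fra-2tg and 13.4-fold in WT. Without WT replicate 2 the ratio of means was 50.3 and the log2 fold change 5.66.

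Retnla was among the most abundant transcripts of the Fra-2tg lung. It ranked 2, 1 and 2 of all genes in Fra-2tg replicates 1 to 3, and 222, 11 and 393 in WT replicates 1 to 3. The surfactant gene Sftpc and the club cell gene Scgb1a1 are listed at 0 in some libraries (Sftpc in all 3 Fra-2tg libraries, Scgb1a1 in Fra-2tg replicate 2 and WT replicate 1) although their other values are the highest or next highest of their libraries. With both set aside, Retnla ranked 1 in every Fra-2tg library and 221, 9 and 391 in WT. On that basis it made up 1.91%, 2.95% and 1.82% of the summed FPKM in Fra-2tg and 0.0627%, 0.470% and 0.0370% in WT. Within the family, Retnla supplied 99.7% to 99.8% of the summed FPKM in Fra-2tg and 80.2% to 98.6% in WT.

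Retnlb, the goblet cell member, was near the limit of detection. It had 0.883, 1.62 and 1.17 FPKM in Fra-2tg, and in WT it was listed at 0 in replicates 1 and 2 and had 0.121 FPKM in replicate 3. Every Fra-2tg library lay above every WT library, at levels where 1 or a few fragments can decide a value. Means were 1.23 ± 0.372 FPKM in Fra-2tg and 0.0402 ± 0.0697 FPKM in WT (SD, n = 3 each). The log2 fold change of 1.09 ± 0.14 (SE) depends on the pseudocount, and no ratio is given. The gene passed the filter at a mean of 0.5 FPKM through its Fra-2tg values alone.

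Retnlg, the neutrophil member, had 25.8, 27.5 and 29.1 FPKM in Fra-2tg and 16.8, 29.6 and 37.1 FPKM in WT. All Fra-2tg values fell inside the WT range. Means were 27.4 ± 1.63 FPKM in Fra-2tg and 27.8 ± 10.3 FPKM in WT (SD, n = 3 each), and the log2 fold change was 0.05 ± 0.26 (SE). The sign was not stable, with a log2 fold change of -0.27 without WT replicate 1 and 0.29 without WT replicate 3.

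Retn, resistin itself, had 2.07, 1.41 and 0.951 FPKM in Fra-2tg and 6.19, 5.04 and 7.76 FPKM in WT. The lowest WT value was 2.44 times the highest Fra-2tg value. Means were 1.48 ± 0.561 FPKM in Fra-2tg and 6.33 ± 1.36 FPKM in WT (SD, n = 3 each), a ratio of 0.233 and a log2 fold change of -1.57 ± 0.20 (SE).

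The order of levels was Retnla, Retnlg, Retn, Retnlb in every WT library. In Fra-2tg libraries Retnla and Retnlg again came first and in this order. Below them Retn and Retnlb could not be ordered, since Retn was the higher in replicate 1 and Retnlb in replicates 2 and 3.

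For genes outside the family, a gene was called where limma gave an adjusted p under 0.05 on log2(FPKM + 1) over the 14855 genes tested. Of those genes, 13.6% were called higher and 13.0% lower in Fra-2tg, and the median log2 fold change was 0.00. Counts in the following lists are read against these shares, and the lists themselves were not tested as sets.

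**Figure D2:**
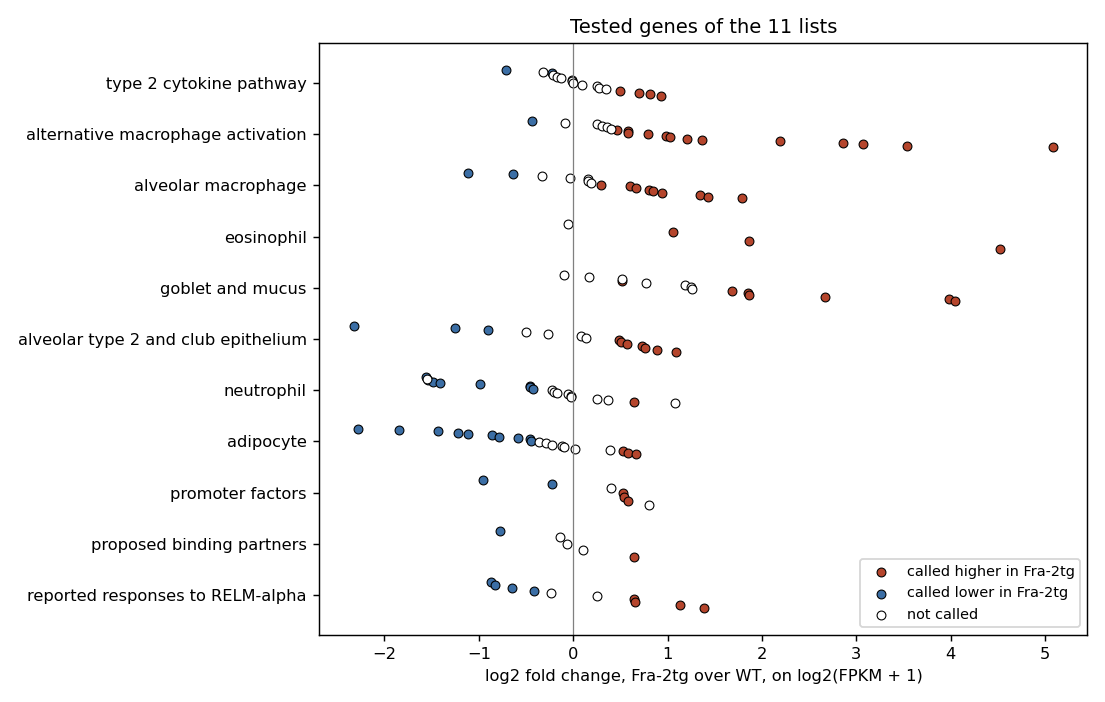
Log2 fold change of Fra-2tg over WT (horizontal axis, on log2(FPKM + 1)) for the tested genes of 11 lists (rows), with genes called higher in red, called lower in blue and not called in white; Sftpc and Scgb1a1, with values listed at 0, are left out. The alternative macrophage activation list lies mostly right of 0, with 13 of 19 called higher, and the adipocyte list mostly left, with 10 of 20 called lower.

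The genes that usually accompany Retnla in alternatively activated macrophages were mostly higher too. In this list 13 of 19 tested genes rose and 1 fell, with a median log2 fold change of 0.80, and the summed FPKM of the list was 2396 to 5056 in Fra-2tg and 484 to 1064 in WT. The chitinase-like gene Chi3l3 (Chil3, Ym1) had 1470, 3678 and 2536 FPKM in Fra-2tg and 193, 620 and 190 FPKM in WT, a ratio of 7.67 (limma adjusted p = 0.00786). Fra-2tg replicate 2 and WT replicate 2 were the highest of their groups, as for Retnla. Its relative Chi3l4 (Chil4, Ym2) rose 24.9-fold, the chemokine Ccl17 9.19-fold, the chemokine Ccl8 5.73-fold and the lectin Mgl2 4.52-fold (limma adjusted p = 0.00608, 0.00879, 0.0316 and 0.00248). WT replicate 2 carried much of these WT means, and without it the ratio was 13.4 for Chi3l3, 109 for Chi3l4 and 21.2 for Ccl17. For Ccl8 the ratio was 10.5 without WT replicate 1. Ccl8 lost its call when 1 Fra-2tg library, whichever it was, or WT replicate 2 was left out (limma adjusted p = 0.0583 to 0.0801). The transglutaminase gene Tgm2 and the factor Klf4 were not called, with ratios of 0.943 and 1.30 (limma adjusted p = 0.350 and 0.166). Klf4 was called higher without Fra-2tg replicate 1 (limma adjusted p = 0.0386).

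The cytokines that induce Retnla were present at low levels. In the type 2 cytokine list, 4 of 17 tested genes rose and 2 fell, with a median log2 fold change of 0.00. Il13 had 1.01, 1.17 and 1.24 FPKM in Fra-2tg and 0, 0.335 and 0.0525 FPKM in WT (log2 fold change 0.93 ± 0.13 SE, limma adjusted p = 0.0042). Il13 passed the filter at a mean of 0.5 FPKM through its Fra-2tg values alone, so little weight rests on its call. WT replicate 2 had the most Il13 and the most Retnla of the WT libraries. It was the highest WT library for 33.9% of tested genes, and a link of Il13 with Retnla was not tested. Il5, the eosinophil growth factor, rose 2.74-fold, the interleukin-33 receptor Il1rl1 2.23-fold and the receptor chain Il4ra, shared by interleukin-4 and interleukin-13, 1.42-fold (limma adjusted p = 0.00596, 0.00215 and 0.00805). Il4 lay below the filter, with at most 0.398 FPKM in Fra-2tg and 0.399 FPKM in WT, and Il25 was listed at 0 in all 6 libraries. Gata3, the factor of type 2 lymphocytes, fell to 0.543 times its WT mean (limma adjusted p = 0.00232). Among genes not called, Il2rg had a ratio of 0.796 and the kinase gene Jak1 0.912 (limma adjusted p = 0.0873 and 0.179).

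Of the factors known for promoters of family genes, 3 of 7 tested rose and 2 fell. Stat6 had 42.7 ± 1.23 FPKM in Fra-2tg and 49.8 ± 1.04 FPKM in WT (SD, n = 3 each), a ratio of 0.856 (limma adjusted p = 0.0206). That call was lost with libraries rescaled to equal sums (limma adjusted p = 0.234) and without Fra-2tg replicates 1 or 2 or WT replicates 1 or 3 (0.0580 to 0.0751). Cebpa rose 1.45-fold, Pparg 1.60-fold and Hif1a 1.5-fold, while Epas1, the HIF-2 alpha gene of endothelium, fell to 0.513 times WT (limma adjusted p = 0.00317, 0.00274, 0.0123 and 0.00114). Cebpb and Cebpd had ratios of 1.31 and 1.83 and were not called (limma adjusted p = 0.138 and 0.205).

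Markers of cells that can make Retnla moved in both directions. Of alveolar macrophage genes, 9 of 16 tested rose and 2 fell, and their summed FPKM was 678 to 822 in Fra-2tg and 436 to 486 in WT. Much of this sum came from Car4, with means of 221 FPKM in Fra-2tg and 179 FPKM in WT, and from Ear2, with 201 and 79.0 FPKM. Car4 is named after its values were seen. The integrin Itgax (CD11c) rose 3.53-fold, the proton pump subunit Atp6v0d2 2.84-fold, the ribonuclease Ear2 2.54-fold and the arginine transporter Slc7a2 2.08-fold, while the lipid droplet gene Cidec, also a fat cell gene, fell to 0.387 times WT (limma adjusted p = 0.00254, 0.00305, 0.00386, 0.00273 and 0.00182). Fabp1 and Il18 had ratios of 0.781 and 1.11 and were not called (limma adjusted p = 0.207 and 0.469).

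Alveolar type 2 and club cell genes split, with 7 of 16 tested higher and 4 lower. Without Sftpc and Scgb1a1 their summed FPKM was 12392 to 15311 in Fra-2tg and 12346 to 12458 in WT. The surfactant protease gene Napsa rose 2.09-fold, while Lyz1 fell to 0.200 times WT, the club cell gene Scgb3a2 to 0.424 and the club cell enzyme Cyp2f2 to 0.542 (limma adjusted p = 0.00539, 0.000393, 0.00463 and 0.0136). The Cyp2f2 call was lost without Fra-2tg replicate 1 (limma adjusted p = 0.0514), and Lyz1 is close in sequence to Lyz2, so its share of their reads is uncertain. The fourth gene counted as lower is Sftpc, listed at 0 in Fra-2tg. Scgb3a1 had a ratio of 0.816 and was not called (limma adjusted p = 0.664). The part of macrophages and of epithelium in the Retnla difference was not tested.

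Eosinophil genes were mostly too low to test. Of 10 genes 4 were tested, and the lipoxygenase Alox15 rose 6.30-fold, the ribonuclease Ear6 3.24-fold and Ear11 31.1-fold (limma adjusted p = 0.00542, 0.0150 and 0.0153). Without WT replicate 3, Ear6 and Ear11 lost their calls (limma adjusted p = 0.0574 and 0.0578) and only Alox15 of this list was called. Ear11 had 17.2, 129 and 37.6 FPKM in Fra-2tg and 0.108, 5.81 and 0 FPKM in WT, so its ratio turns on single libraries. It was 13.9 without Fra-2tg replicate 2, 20.7 without WT replicate 3 and 1137 without WT replicate 2, where the WT mean is 0.0540 FPKM. The summed FPKM of the list was 28.2 to 147 in Fra-2tg and 5.66 to 12.8 in WT. Siglece was not called, with a ratio of 0.954 (limma adjusted p = 0.691). The peroxidase Epx, which defines eosinophils and is named here after its values were seen, stayed at or below 0.0185 FPKM in Fra-2tg and 0.0619 FPKM in WT. The eotaxin receptor gene Ccr3, also untested and named on the same terms, was higher in every Fra-2tg library than in every WT library. It had 0.279, 0.226 and 0.314 FPKM in Fra-2tg and 0.0380, 0.0665 and 0.0462 FPKM in WT. Il5ra, Prg2, Prg3 and Cebpe, the other untested genes of the list, overlapped between the groups. Il5ra had 0.487, 0.198 and 0.320 FPKM in Fra-2tg and 0.472, 0.606 and 0.740 FPKM in WT. Prg2 had 0.0597, 0.0942 and 0.160 FPKM in Fra-2tg and 1.16, 0.0614 and 0.0672 FPKM in WT.

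By the rule of smallest root mean square difference between centred log2(FPKM + 1) profiles over the 6 libraries, the gene most like Retnla was Fosl1, at 0.380 log2 units. Fosl1 encodes Fra-1, the closest AP-1 relative of Fra-2. It had 39.9, 44.4 and 46.0 FPKM in Fra-2tg and 0.0271, 8.23 and 0.0631 FPKM in WT, and so repeated the high value of WT replicate 2. Next came Chi3l4 (0.427), the anion exchanger Slc26a4 (0.447), the surface protein gene Psca (0.585) and Ccl17 (0.645). All 6 profiles share the genotype difference and the raised WT replicate 2, which follows from the choice by likeness. The family neighbour with the closest coding sequence, Retnlg, was 2.55 log2 units away from Retnla.

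**Figure D3:**
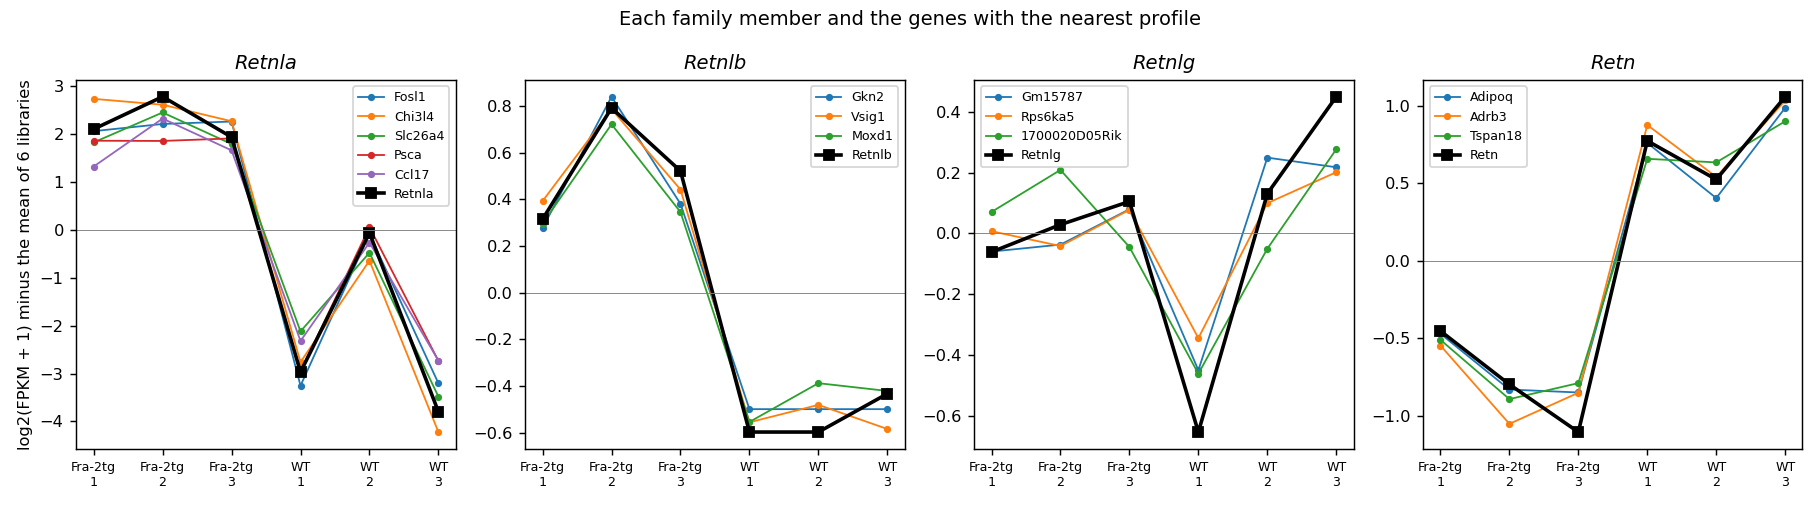
Log2(FPKM + 1) minus its mean over the 6 libraries (vertical axes) in each library for each family gene (black squares) and the genes with the nearest profiles (coloured). Retnla and its 5 nearest genes share a raised WT replicate 2, and Retn follows Adipoq within 0.120 log2 units (root mean square). The coloured genes were chosen by likeness, so shared shapes are built in.

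Retnlb was followed most closely by 3 low genes. All 3 passed the filter at a mean of 0.5 FPKM through their Fra-2tg values alone, as Retnlb did. Profiles of genes this low can differ little on log2(FPKM + 1), so little weight rests on these distances. Gkn2, a gastrokine of stomach epithelium, had 0.714, 1.53 and 0.842 FPKM in Fra-2tg and was listed at 0 in all WT libraries, 0.0890 log2 units from Retnlb. Vsig1, a junction protein gene of stomach epithelium, had 1.33, 2.07 and 1.42 FPKM in Fra-2tg and 0.209, 0.273 and 0.185 FPKM in WT, at 0.0920 log2 units. Moxd1 had 0.862, 1.5 and 0.926 FPKM in Fra-2tg and 0.0319, 0.158 and 0.132 FPKM in WT, at 0.117 log2 units. In each, Fra-2tg replicate 2 was the highest library, as for Retnlb, which the choice by likeness favours.

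Mucous cell genes, a list set up for Retnlb, were higher in Fra-2tg for 7 of 14 tested genes and the other 7 were not called. Their summed FPKM was 962 to 1529 in Fra-2tg and 138 to 421 in WT. Clca3 (now Clca1, the goblet cell gene gob-5) had 514, 526 and 411 FPKM in Fra-2tg and 72.6, 64.2 and 4.87 FPKM in WT, a ratio of 10.2 (limma adjusted p = 0.0218). Slc26a4 rose 13.1-fold, the mucus protein Fcgbp 8.31-fold, the airway secretory gene Bpifb1 3.74-fold and the mucin chaperone Agr2 3.68-fold (limma adjusted p = 0.00762, 0.00186, 0.00544 and 0.0295). The Slc26a4 ratio was 31.8 without WT replicate 2 and the Agr2 ratio 6.76 without WT replicate 1. Agr2 lost its call without Fra-2tg replicates 1 or 2 or WT replicates 2 or 3 (limma adjusted p = 0.0749 to 0.0837), and Clca3 when any Fra-2tg replicate was left out (0.0527 to 0.0673). The mucin Muc5b (ratio 1.76) and the trefoil gene Tff2 (ratio 1.90) were not called (limma adjusted p = 0.0903 and 0.180), and each was called higher without WT replicate 1 (0.0390 and 0.0102). The part of mucous cells in the Retnlb difference was not tested.

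Of 19 tested genes of neutrophils, the cells Retnlg is known from, 8 fell, 1 rose and 10 were not called, with a median log2 fold change of -0.23. Their summed FPKM was 879 to 1625 in Fra-2tg and 1501 to 1886 in WT, and the stefin gene BC100530 was listed at 0 in all 6 libraries. Of this sum, Chi3l1 made up 774 FPKM in Fra-2tg and 770 FPKM in WT on average. Lcn2 made up 111 FPKM in Fra-2tg and 333 FPKM in WT. The calgranulin gene S100a8 had 68.2, 55.9 and 71.4 FPKM in Fra-2tg and 110, 229 and 285 FPKM in WT, a ratio of 0.313 (limma adjusted p = 0.0165). Its partner S100a9 fell to 0.331 times WT, the growth factor receptor Csf3r to 0.290, Il1b to 0.460 and the stefin gene Stfa2l1 to 0.174 (limma adjusted p = 0.0131, 0.00153, 0.0145 and 0.0214). Il1b lost its call without Fra-2tg replicate 1 (limma adjusted p = 0.0513) and Stfa2l1 without Fra-2tg replicates 2 or 3 (0.0567 and 0.0604). The Stfa2l1 ratio was 0.263 without WT replicate 3. Trem1, also called lower and named after its values were seen, passed the filter at a mean of 0.5 FPKM through its WT values alone. Its means were 0.406 FPKM in Fra-2tg and 0.932 FPKM in WT. The gene that rose, 1100001G20Rik (now Wfdc21), is named after its values were seen and had a ratio of 1.60 (limma adjusted p = 0.0025). Lcn2, which epithelium also makes, had a ratio of 0.334 and Chi3l1 of 1.00, neither called (limma adjusted p = 0.0747 and 0.901). Lcn2 was called lower without Fra-2tg replicate 2 (limma adjusted p = 0.0316). The part of neutrophils in the Retnlg level was not tested.

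The ratio of Retnlg to each of the 19 tested neutrophil genes was also formed within each library, as a description. It was higher in all Fra-2tg libraries than in all WT libraries for 9 genes, and overlapped for 10. The 9 were the 8 genes called lower and Padi4, which was not called. Retnlg itself hardly differed in mean between the genotypes, so its ratio to genes called lower rises with their fall. No share over all tested genes was formed, and nothing is read from the count. The ratio to S100a8 was 0.378, 0.492 and 0.407 in Fra-2tg and 0.152, 0.129 and 0.130 in WT. For the granule gene Ltf it was 0.621, 0.352 and 0.524 in Fra-2tg and 0.308, 1.52 and 2.24 in WT, and for Chi3l1 0.0453, 0.0240 and 0.0479 in Fra-2tg and 0.0184, 0.0397 and 0.0567 in WT, with overlap for both. Ltf and Padi4 are named after their values were seen. The genes with profiles nearest to Retnlg, Gm15787, Rps6ka5 and 1700020D05Rik (0.138, 0.167 and 0.169 log2 units), were all below 3 FPKM in each library. Chosen for likeness to Retnlg, they were bound to show little difference between the genotypes.

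**Figure D4:**
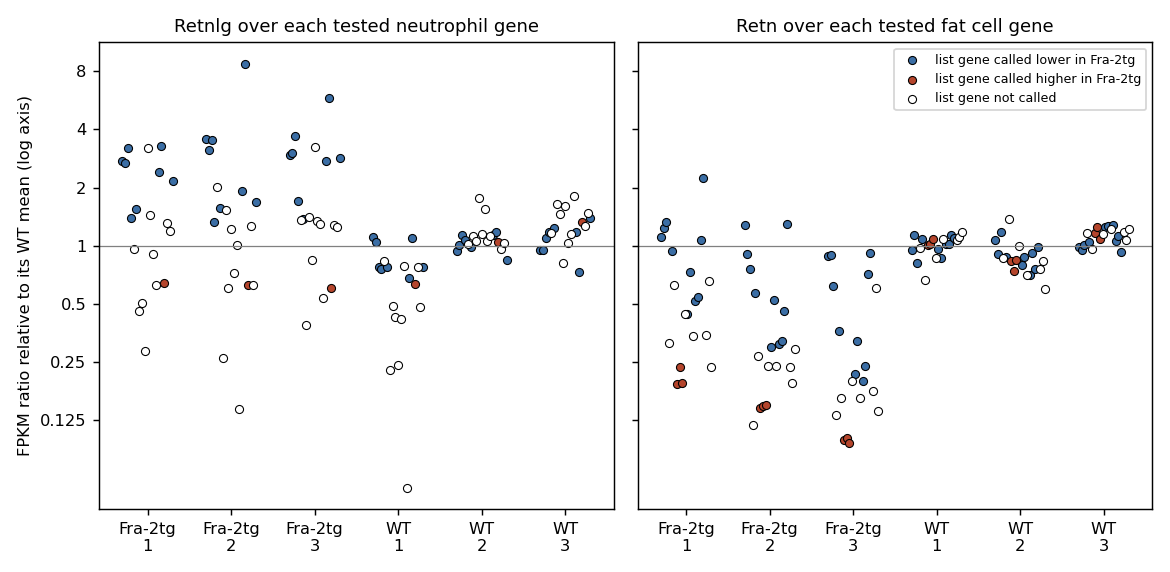
FPKM ratios within each library, relative to the WT mean of the same ratio (vertical axes, log scale), for Retnlg over each of 19 tested neutrophil genes (left) and Retn over each of 20 tested fat cell genes (right); each point is 1 list gene in 1 library, coloured by the call of the list gene. Retnlg ratios are higher in Fra-2tg for 9 list genes and overlap for 10. Retn ratios are lower in Fra-2tg for 14 and overlap for 6. The levels of Retnlg and Retn themselves enter every ratio.

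In the adipocyte list, set up for Retn, 10 of 20 tested genes fell, 3 rose and 7 were not called, with a median log2 fold change of -0.40. Their summed FPKM was 807 to 1073 in Fra-2tg and 837 to 1076 in WT, of which Scd1 made up 562 FPKM in Fra-2tg and 549 FPKM in WT on average. Adipoq, the adiponectin gene, had 1.19, 0.705 and 0.683 FPKM in Fra-2tg and 4.14, 3.02 and 5.02 FPKM in WT, a ratio of 0.212 (limma adjusted p = 0.00273). The carbonic anhydrase Car3 fell to 0.159 times WT, the adipsin gene Cfd to 0.254, Thrsp, a lipogenic gene, to 0.333 and Cidec to 0.387 (limma adjusted p = 0.00104, 0.00266, 0.00615 and 0.00182). The 3 that rose were Cebpa (1.45-fold), Pparg (1.60-fold) and the lipase Lpl (1.60-fold; limma adjusted p = 0.00432). Pparg and Lpl also stand in the macrophage lists. Fabp4 and Scd1, which endothelium and alveolar epithelium express too, had ratios of 1.36 and 1.02 and were not called (limma adjusted p = 0.221 and 0.961).

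Adipoq had the profile nearest to Retn of all tested genes, at 0.120 log2 units. Next were Adrb3, the beta-3 adrenergic receptor of fat cells, at 0.158 and the membrane protein gene Tspan18 at 0.165. Adrb3 had 3.36, 2.07 and 2.53 FPKM in Fra-2tg and 10.7, 8.27 and 12.0 FPKM in WT. Retn, Adipoq, Adrb3 and Tspan18 shared the same order in WT, with replicate 3 highest and replicate 2 lowest. The choice of these genes by likeness to Retn favours a shared order. The ratio of Retn to each of the 20 tested fat cell genes was formed in the same way. It overlapped between the groups for 6 genes, Adipoq, Plin1, Cfd, Cidec, Thrsp and Car3, all called lower. It was lower in every Fra-2tg library for the other 14, which were 4 genes called lower, the 3 called higher and the 7 not called. Retn itself was lower in Fra-2tg, so its ratio to genes that rose or did not change falls too. Nothing is read from the count. The ratio to Adipoq was 1.74, 2.01 and 1.39 in Fra-2tg and 1.49, 1.67 and 1.54 in WT. The ratio to the lipase gene Pnpla2, called lower, was 0.0421, 0.0284 and 0.0207 in Fra-2tg and 0.0915, 0.0755 and 0.118 in WT. Plin1, a lipid droplet gene, and Pnpla2 are named after their values were seen. Plin1 passed the filter at a mean of 0.5 FPKM through its WT values alone, so little weight rests on its call. Its means were 0.317 FPKM in Fra-2tg and 1.41 FPKM in WT. Leptin (Lep), a defining fat cell gene named after its values were seen, reached at most 0.0197 FPKM in Fra-2tg and 0.0754 FPKM in WT. The part of fat cells in the Retn difference was not tested.

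Few genes next to the chromosome 16 cluster could be tested. Within 500 kb of the 3 members the table holds 5 other genes. The 2 tested, the T cell adaptor gene Trat1 ahead of Retnlb and Dzip3 beyond Retnlg, were not called (limma adjusted p = 0.755 and 0.613). Within 500 kb of Retn, 3 of 20 tested genes were higher and 5 lower. The higher ones were the lectin genes Cd209a, Cd209d and Cd209e. The lower ones were A430078G23Rik, Arhgef18, Camsap3, Cd209f and Fcer2a, the low-affinity IgE receptor gene. Cd209e passed the filter through its Fra-2tg values alone, with means of 1.94 FPKM in Fra-2tg and 0.168 FPKM in WT. Cd209f passed it through its WT values alone, with means of 0.310 FPKM in Fra-2tg and 1.03 FPKM in WT. Fcer2a, whose start lies 38.4 kb from that of Retn, averaged 5.91 FPKM in Fra-2tg and 17.2 FPKM in WT (limma adjusted p = 0.0125). The neighbours on either side, Stxbp2 and Trappc5, were not called (limma adjusted p = 0.241 and 0.178). The A430078G23Rik and Cd209f calls were lost with libraries rescaled to equal sums (limma adjusted p = 0.0848 and 0.0655) and without Fra-2tg replicates 1 or 3 or WT replicate 3 (0.0536 to 0.106).

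Genes of proteins reported to bind family members showed no common direction. Tlr4, proposed as a resistin receptor, rose 1.73-fold, and Dcn (decorin), a form of which was reported to bind resistin, fell to 0.573 times WT (limma adjusted p = 0.00856 and 0.00328). Cap1, described as a receptor of human resistin, Btk, reported to bind RELM-alpha, and Ror1 had ratios of 1.08, 0.938 and 0.860 and were not called (limma adjusted p = 0.240, 0.706 and 0.354). Together 1 of 5 was higher and 1 lower.

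Genes reported to respond to RELM-alpha in mouse cells or tissue were split evenly, with 4 of 10 higher and 4 lower and a median log2 fold change of 0.01. Col3a1 rose 2.59-fold, the monocyte chemokine Ccl2 2.71-fold and Col1a1 1.58-fold (limma adjusted p = 0.00215, 0.00388 and 0.0311). Vegfa fell to 0.546 times WT, and Plod2, a collagen lysyl hydroxylase reported to rise with RELM-alpha in mouse skin repair, to 0.543 (limma adjusted p = 0.0012 and 0.0011). Notch1 and its ligand Jag1 had ratios of 0.846 and 1.22 and were not called (limma adjusted p = 0.0564 and 0.117). The Col1a1 call was lost without Fra-2tg replicates 1 or 3 or WT replicates 1 or 3 (limma adjusted p = 0.0796 and above), Notch1 was called lower without Fra-2tg replicate 3 (0.0279), and Jag1 was called higher without Fra-2tg replicate 1 (0.0316).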

How the data were processed

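Poly(A) RNA of 6 mouse lungs was measured by stranded RNA sequencing, with 3 libraries in each genotype. Alignment tools named in the submitters' processing notes are Bowtie 1.0.0 and TopHat2 2.0.10, beside Cufflinks 2.2.1, SAMtools 0.1.19 and FastQC, with build GRCm38 (mm10) and no settings. The authors deposited FPKM values, 1 column per mouse, and no counts.

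The 14855 of 23284 genes averaging 0.5 FPKM or more were fitted with limma 3.58.1 in R 4.3.3 on log2(FPKM + 1), two-sided, with a variance trend, Benjamini-Hochberg adjustment over all genes and no covariate. This scale understates changes of low genes. The fit was tested on simulated data. Sequences were aligned with biopython 1.88.

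The members and the 11 lists were chosen with earlier results of these data known. Of 161 list genes 158 matched a row, 7 through an older symbol. Named genes are the 5 largest called changes and 2 most abundant uncalled genes of each list, every binding partner, the nearest profiles (5 for Retnla, 3 for each other member) and called genes within 500 kb. Deviations of libraries with the same replicate number correlated at r = -0.0539, 0.0139 and 0.163 over genes. For libraries with different numbers r ran from -0.220 to 0.186, a range that holds these values, so the numbers were not taken as pairs.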

Additional observations from a re-analysis of the deposited data

How the results depend on the processing

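Pseudocounts of 0.1 and 0.01 FPKM gave log2 fold changes of 3.31 and 5.67 for Retnlb and -2.07 and -2.14 for Retn. Over the runs without 1 library, log2 fold changes ranged from 3.79 to 5.66 for Retnla, 0.96 to 1.2 for Retnlb, -0.27 to 0.29 for Retnlg and -1.74 to -1.41 for Retn. Rescaling to equal library sums left 1132 genes called higher and 1169 lower, against 2027 and 1936. These sums depend on Sftpc and Scgb1a1, which are listed at 0 in some libraries. It also left 1 type 2 gene, 0 alternative macrophage genes and 1 promoter factor called lower. A filter at 5 FPKM, which tests fewer genes, left 1 type 2 gene, 1 eosinophil gene and 0 binding partners higher, and 1 type 2 gene, 4 neutrophil genes and 5 adipocyte genes lower. With the replicate block, 5 promoter factors were called higher (Cebpb and Cebpd with limma adjusted p = 0.0192 and 0.0481), with 1890 genes higher and 1651 lower in all. Under it Notch1 was called lower (0.0441) and the Col1a1 and Cd209f calls were lost (0.0850 and 0.0691). The cause was not tested.

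Without 1 library at a time, 1088 to 1695 genes were called higher and 1141 to 1709 lower, with the fewest without WT replicate 3, and 1158 higher without Fra-2tg replicate 1. Counts of genes called higher ran from 1 (without WT replicate 3) to 3 for eosinophil genes, from 1 to 2 (without WT replicate 1) for neutrophil genes, from 3 (without Fra-2tg replicates 1 or 2; 4 without WT replicates 2 or 3) to 10 for mucous genes and from 4 (without Fra-2tg replicates 1 or 3 or WT replicate 3) to 7 for alveolar type 2 and club genes. Counts called lower ran from 1 to 2 for type 2 genes and promoter factors (Stat6) and from 4 (without Fra-2tg replicate 1; 5 without Fra-2tg replicate 3 or WT replicate 3) to 8 for neutrophil genes. Of 356 values under an alternative, 317 kept to within 1.5 times the reported count or 1 within-group SD of the reported log2 fold change. That SD was wide for Retnla, at 1.42 log2 units. FPKM without read counts limits what can be said of Retnlb and Il13, whose WT values lie near 0.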
